A study of Mus musculus with 6 samples.

Results

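The macrophage and microglia marker genes are 34 genes used as markers of these cells. Macrophages are the tissue phagocytes of the myeloid lineage, and microglia are the resident phagocytes of the retina and brain. The marker genes were chosen by symbol, with earlier results of these data known. All 34 were found among the 54532 genes of the deposited count table. The retinal pigment epithelium (RPE), the pigmented layer between the photoreceptors and the choroid, was profiled by bulk RNA sequencing in 3 wild-type mice (WT) and 3 mice with Abca4-/- genotype (Abca4KO), 1 library per mouse, at 5 h after light onset. Per the labels' protocols, WT mice were 129S1/SvlmJ and Abca4KO mice carried the Abca4tm1Ght allele of a Jackson line. Both had the Leu450 form of Rpe65, a standard diet and cyclic light, and line and genotype change together. Age and sex are not given in the sources used here. The series title concerns lysosome formation and phagocytic clearance in the retina, and the comparison asks how the RPE transcriptome differs between the genotypes.

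Macrophages of the eye live mainly beside the RPE sheet, in the choroid and around its vessels, while microglia live in the neural retina and can reach the space next to the RPE. Their survival depends on the receptor encoded by Csf1r, their lineage genes on the transcription factor PU.1 encoded by Spi1, and much of their activating signal on the adaptor DAP12 encoded by Tyrobp, with which the lipid receptor Trem2 pairs. Phagocytes that take up lipid-rich debris are known to raise Gpnmb, Spp1, Lgals3 and Clec7a beside Trem2. Several of these genes are also known outside the myeloid lineage. Gpnmb is a melanosome glycoprotein gene of pigment cells, Cd68 and Lyz2 encode lysosomal proteins, and Lyve1 also marks lymphatic endothelium.

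Levels are given in CPM, read counts scaled to library size, and values of 3 libraries are always in the order of replicates 1, 2 and 3. Libraries held from 17047286 to 19841307 counts in total, so 3 counts were worth 0.152 to 0.174 CPM, a floor that covers counting error only. The tissue label was matched by Rpe65 at 4945 ± 633 CPM for WT and 4715 ± 252 CPM for Abca4KO (SD, n = 3), and 20 RPE markers summed to between 41154 and 52011 CPM in WT and between 48183 and 50923 CPM in Abca4KO. Abca4 measured 955, 932 and 968 CPM in WT and 32.6, 39.1 and 36.8 CPM in Abca4KO, so every library matched its genotype label. Each of the 34 members had counts in each library, the lowest being 9, and all 34 passed the filter on low counts.

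No member passed the threshold of an adjusted p of 0.05 between the genotypes in edgeR's quasi-likelihood test. The count was 0 of 34, where 0.0461% of all 17340 genes tested passed (0.0346% higher and 0.0115% lower in Abca4KO). At an unadjusted p under 0.05 there were 7 members, all higher in Abca4KO (Lyz2, Cd68, Trem2, Fcgr2b, Cd163l1, Gpnmb and Spp1), beside 7.02% of all genes, or 3.15% for higher ones alone. DESeq2 called 4 of 34 (Cd68, Cd163l1, Gpnmb and Spp1, all higher) where it called 0.657% of all genes, and limma-voom called 0 of 34 where it called 0.0519% of all genes, with 7 members at an unadjusted p under 0.05. Of the 34 members 23 had a positive log2 fold change, against 47.8% of all genes, and their median was 0.26, against -0.01 over all genes. In 7 members all 3 Abca4KO libraries lay above all 3 WT libraries and in 3 they lay below them, against 5.93% and 6.85% of all genes, or 12.8% in all. Because the members were chosen with earlier results of these data known, the shares over all genes are a description and not a test. The median moved with single libraries. It was 0.74 without WT 2, 0.02 without WT 3 and 0.05 without Abca4KO 2.

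**Figure D1:**
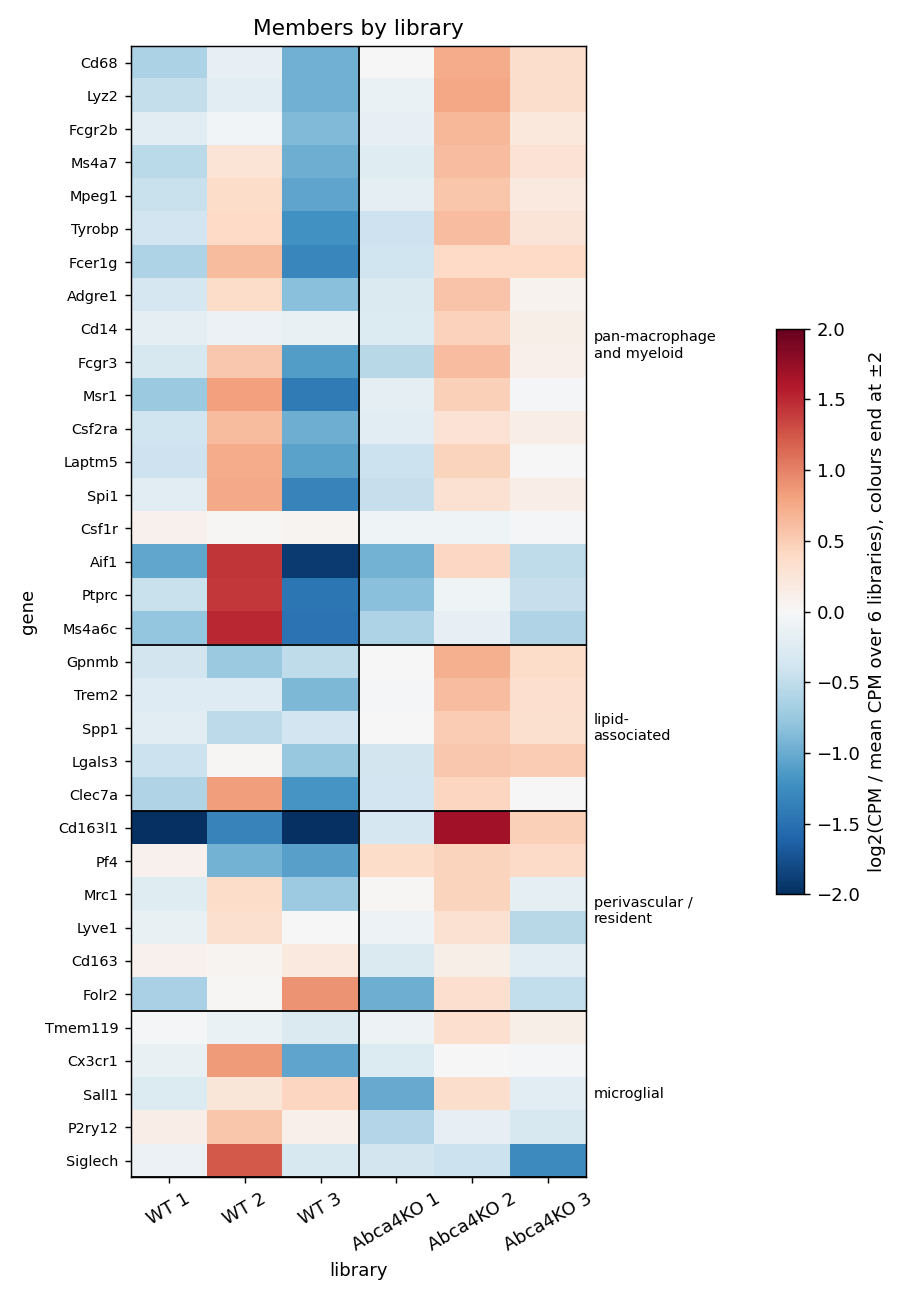
Level of the 34 members (rows, grouped by role) in each of the 6 libraries (columns), as log2 of CPM over the member's mean CPM in all 6 libraries, with colours that end at ±2. Ptprc, Aif1 and Ms4a6c are darkest red in WT 2, while Gpnmb, Spp1, Trem2, Cd68 and Lyz2 are low in all 3 WT libraries and highest in Abca4KO 2.

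All 5 lipid-associated members had a log2 fold change above 0 and their median was 0.67. Gpnmb, Spp1 and Trem2 did not overlap between the genotypes. Gpnmb (chr6:49036546-49070929, mm10) measured 1398, 1072 and 1263 CPM in WT 1, 2 and 3 and 1807, 2954 and 2317 CPM in Abca4KO 1, 2 and 3. The lowest Abca4KO library lay above the highest WT library, means were 1.896-fold apart at 1244 ± 164 CPM for WT and 2359 ± 574 CPM for Abca4KO (SD, n = 3), and the log2 fold change was 0.92 with SE 0.19 and adjusted p = 0.453. Spp1, which encodes the secreted phosphoprotein osteopontin (chr5:104435118-104441050), measured 138, 113 and 124 CPM in WT 1, 2 and 3 and 164, 232 and 203 CPM in Abca4KO 1, 2 and 3. Its libraries did not overlap either (log2 fold change 0.67 with SE 0.14 and adjusted p = 0.463). Trem2 (chr17:48346401-48354147) measured 38.9, 38.98 and 25.04 CPM in WT 1, 2 and 3 and 45.7, 71.4 and 58.9 CPM in Abca4KO 1, 2 and 3. WT 1 and WT 2 were nearly equal and WT 3 was lower, and all 3 Abca4KO libraries were above them (log2 fold change 0.77 with SE 0.22 and adjusted p = 0.616). Lgals3, the gene of galectin-3, a lectin recruited to damaged lysosomes, measured 139, 190.4 and 112 CPM in WT and 146, 274 and 266 CPM in Abca4KO. Abca4KO 1 lay below WT 2, so its genotypes overlapped (log2 fold change 0.64 with SE 0.28 and adjusted p = 0.711). Clec7a, which encodes the beta-glucan receptor dectin-1, followed another order and measured 23.5, 63.5 and 15.7 CPM in WT and 27.4, 47.6 and 35.6 CPM in Abca4KO, highest in WT 2 and lowest in WT 3 (log2 fold change 0.11 with SE 0.49 and adjusted p = 0.9799). Leaving out WT 2 left Gpnmb at 0.83, Spp1 at 0.60 and Trem2 at 0.87 on the log2 scale, and moved Clec7a from 0.11 to 0.91. Beside these values, 10 melanocyte markers summed to between 3844 and 5839 CPM in WT and between 5358 and 7123 CPM in Abca4KO, lowest in WT 2 and highest in Abca4KO 2. The melanosome protein gene Mlana measured 208, 166 and 204 CPM in WT and 234, 364 and 327 CPM in Abca4KO. Of these 10 markers, 8 had a positive log2 fold change, against 47.8% of all genes. All Abca4KO libraries lay above WT in 3 of the markers and below WT in 1, against 5.93% and 6.85% of all genes. No melanocyte marker was at 0. The RPE is itself pigmented, so the sum of these markers cannot be read as melanocyte content. The part of pigment cells in the Gpnmb difference was not tested. Bulk RNA cannot tell more cells of a type from more RNA per cell, which applies to every difference given here.

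Promoter windows are shown as examples for 3 of the 7 members that were higher in all Abca4KO libraries (Gpnmb, Cd68 and Trem2) and for 1 of the 13 that were highest in WT 2 (Clec7a). So few windows do not stand for either pattern. They are the 250 bases before the RefSeq start site in GRCm38.p6, 5′ to 3′ on the strand of the gene. Capitals mark GAGGAA, the core that PU.1 recognises, or its reverse complement TTCCTC.
Gpnmb, chr6:49036268-49036517, plus strand: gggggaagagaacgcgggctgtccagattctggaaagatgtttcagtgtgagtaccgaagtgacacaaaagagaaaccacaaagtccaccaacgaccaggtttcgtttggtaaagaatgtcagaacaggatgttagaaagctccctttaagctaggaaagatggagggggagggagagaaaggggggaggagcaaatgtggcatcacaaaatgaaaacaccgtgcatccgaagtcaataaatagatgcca
Cd68, chr11:69666171-69666420, minus strand: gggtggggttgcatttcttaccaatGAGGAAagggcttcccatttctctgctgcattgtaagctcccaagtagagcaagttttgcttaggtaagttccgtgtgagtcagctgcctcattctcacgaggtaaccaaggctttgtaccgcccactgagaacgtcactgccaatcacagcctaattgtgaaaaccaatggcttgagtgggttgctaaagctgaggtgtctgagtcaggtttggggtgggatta
Trem2, chr17:48346151-48346400, plus strand: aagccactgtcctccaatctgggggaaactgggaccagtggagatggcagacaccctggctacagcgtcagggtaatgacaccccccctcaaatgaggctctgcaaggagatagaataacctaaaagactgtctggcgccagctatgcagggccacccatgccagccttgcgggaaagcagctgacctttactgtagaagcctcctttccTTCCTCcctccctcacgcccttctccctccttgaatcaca
Clec7a, chr6:129472780-129473029, minus strand: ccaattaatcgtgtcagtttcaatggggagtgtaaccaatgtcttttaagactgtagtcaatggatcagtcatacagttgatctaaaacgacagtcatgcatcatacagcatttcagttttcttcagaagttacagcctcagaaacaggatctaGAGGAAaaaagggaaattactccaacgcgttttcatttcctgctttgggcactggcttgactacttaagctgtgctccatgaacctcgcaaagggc
The core was present once in the windows of Cd68, Trem2 and Clec7a, on the gene's strand in Cd68 and Clec7a and on the other strand in Trem2, and these letters are not in the Gpnmb window. Among the other members higher in all Abca4KO libraries, Spp1 (not in every window) and Pf4 held it, and Lyz2 and Cd163l1 did not. RefSeq windows matched 26 of the 34 members by symbol, and 11 of the 26 (42.3%) held the core on either strand, as did 25.9% of all 27025 genes with a window. Neither of 2 cores of pigment cell and lysosomal gene regulators was in the 4 windows shown. CATGTG, the core of the M-box, was in 2 of 26 members and 13.8% of all genes, and CACGTG, the core of the CLEAR element, in 2 of 26 and 6.86%. CATGTG and CACGTG differ at 1 base, so no stretch counts for both. Such matches describe letters in a window and not binding.

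Among the 18 pan-macrophage and myeloid members 14 had a log2 fold change above 0, and their median was 0.28. Lyz2 and Cd68, whose products work in the phagolysosome, were higher in every Abca4KO library. Lyz2, the lysozyme gene (chr10:117277331-117282321), measured 1660.5, 2002 and 1179 CPM in WT 1, 2 and 3 and 2109.9, 3937 and 2957 CPM in Abca4KO 1, 2 and 3. The gap between WT 2 and Abca4KO 1 was narrow, means were 1.86-fold apart at 1614 ± 413 CPM for WT and 3001 ± 914 CPM for Abca4KO (SD, n = 3), and the log2 fold change was 0.90 with SE 0.26 and adjusted p = 0.616. Cd68, the lysosomal membrane glycoprotein used as a phagocyte stain (chr11:69664213-69666153), measured 89.1, 124 and 71.2 CPM in WT 1, 2 and 3 and 137, 232 and 176 CPM in Abca4KO 1, 2 and 3. It did not overlap between the genotypes (log2 fold change 0.94 with SE 0.25 and adjusted p = 0.573). Mpeg1, which encodes the pore-forming perforin-2 of phagocytic vacuoles, measured 361, 631 and 236 CPM in WT and 429, 725 and 564 CPM in Abca4KO. Here WT 2 lay above both Abca4KO 1 and Abca4KO 3, so the genotypes overlapped (log2 fold change 0.49 with SE 0.35 and adjusted p = 0.829). Msr1, the class A scavenger receptor, measured 7.801, 23.03 and 4.899 CPM in WT and 11.6, 18.2 and 12.7 CPM in Abca4KO, highest in WT 2 (log2 fold change 0.25 with SE 0.53 and adjusted p = 0.951). Cd14, the lipopolysaccharide co-receptor, measured 8.64, 9.02 and 8.82 CPM in WT and 8.07, 13.5 and 10.6 CPM in Abca4KO, nearly flat in WT (log2 fold change 0.28 with SE 0.21 and adjusted p = 0.842).

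**Figure D2:**
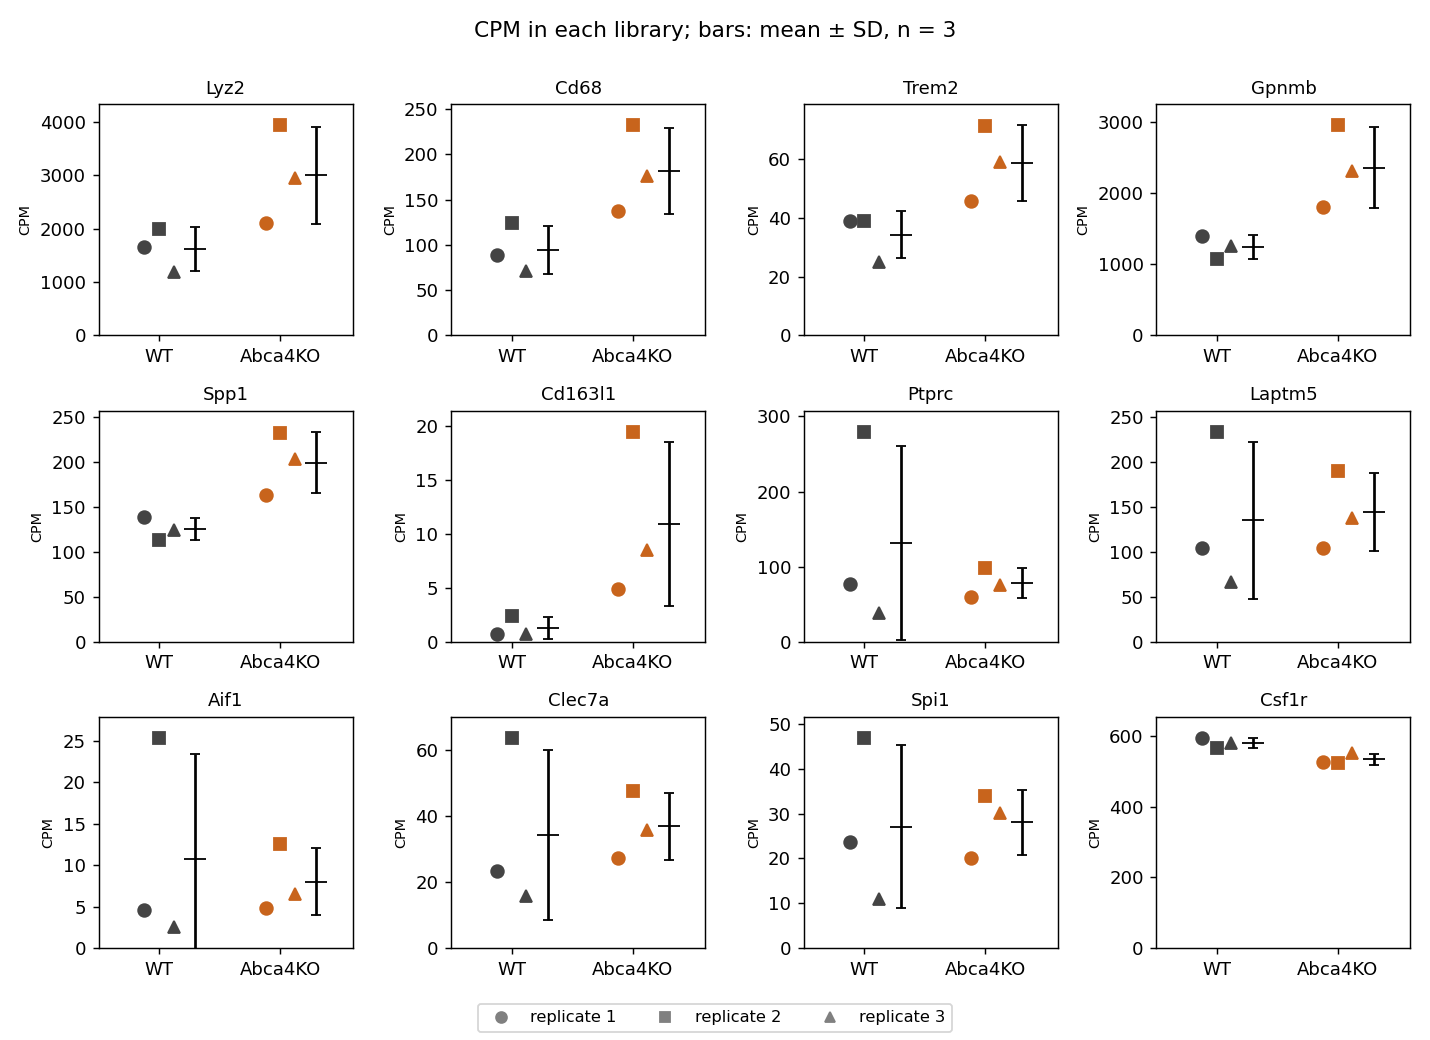
CPM of 12 members in each library (circle, square and triangle for replicates 1, 2 and 3), with the mean ± SD of 3 libraries beside them, on linear axes that start at 0, where the lower bar of Aif1 in WT ends at the axis. Lyz2, Cd68, Trem2, Gpnmb, Spp1 and Cd163l1 do not overlap between the genotypes, in Ptprc, Laptm5, Aif1, Clec7a and Spi1 the square of WT 2 is the highest point, and Csf1r is nearly level.

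Ptprc, Aif1, Ms4a6c, Laptm5 and Spi1 had their highest value in WT 2. Ptprc, the CD45 phosphatase gene carried by all nucleated blood cells, measured 77.1, 279.6 and 38.4 CPM in WT 1, 2 and 3 and 58.96, 98.7 and 75.95 CPM in Abca4KO 1, 2 and 3. WT 2 was 4.84 times the mean of WT 1 and WT 3, and the 3 Abca4KO libraries lay between WT 3 and WT 2. The log2 fold change of Ptprc was -0.76 with SE 0.64 and adjusted p = 0.857, and it turned to 0.43 without WT 2. Aif1, the gene of the microglial stain IBA1, measured 4.56, 25.3 and 2.504 CPM in WT 1, 2 and 3 and 4.87, 12.5 and 6.57 CPM in Abca4KO 1, 2 and 3. WT 2 was 7.16 times the mean of the other WT libraries, and the log2 fold change of -0.43 with SE 0.81 and adjusted p = 0.943 became 1.18 without it. Ms4a6c, a multi-span membrane protein gene of myeloid cells, measured 6.65, 32.5 and 4.08 CPM in WT and 7.41, 10.2 and 7.497 CPM in Abca4KO. It had the same high library, and its log2 fold change of -0.79 with SE 0.70 and adjusted p = 0.862 became 0.64 without it. Laptm5, a lysosomal membrane protein gene of blood cells, measured 104, 233 and 66.7 CPM in WT and 104, 189.8 and 138 CPM in Abca4KO (log2 fold change 0.09 with SE 0.44 and adjusted p = 0.981). Spi1 measured 23.6, 46.9 and 10.9 CPM in WT and 20.04, 34.00 and 30.1 CPM in Abca4KO (log2 fold change 0.05 with SE 0.47 and adjusted p = 0.989). Both were highest in WT 2 and lowest in WT 3, and both had a higher value in Abca4KO 2 than in Abca4KO 1 or 3.

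Of the receptor and adaptor genes in the pan-macrophage group, Csf1r did not overlap between the genotypes and the others did. Tyrobp measured 39.8, 68.6 and 22.5 CPM in WT and 39.3, 80.03 and 62.4 CPM in Abca4KO, highest in Abca4KO 2 (log2 fold change 0.47 with SE 0.41 and adjusted p = 0.857). Fcer1g, the common gamma chain of activating Fc receptors, measured 17.5, 41.9 and 10.9 CPM in WT and 20.4, 35.4 and 35.7 CPM in Abca4KO (log2 fold change 0.38 with SE 0.47 and adjusted p = 0.903). In both, WT 3 was the lowest of the 6 libraries. Fcgr3, an activating receptor for IgG, measured 18.3, 33.3 and 10.6 CPM in WT and 15.6, 34.9 and 24.5 CPM in Abca4KO (log2 fold change 0.27 with SE 0.43 and adjusted p = 0.931). Fcgr2b, the inhibitory receptor for IgG, measured 35.03, 39.2 and 22.2 CPM in WT and 36.5, 64.96 and 47.3 CPM in Abca4KO (log2 fold change 0.63 with SE 0.26 and adjusted p = 0.706). Abca4KO 1 lay below WT 2 in both, and the 2 genes share a stretch of 512 bases with 96.3% identity, so reads between them may be split. Adgre1, the gene of the macrophage stain F4/80, measured 27.6, 45.4 and 19.5 CPM in WT and 28.7, 52.1 and 36.96 CPM in Abca4KO (log2 fold change 0.35 with SE 0.33 and adjusted p = 0.869). Csf2ra, the receptor subunit for GM-CSF, measured 50.7, 104 and 33.8 CPM in WT and 57.3, 81.01 and 72.8 CPM in Abca4KO (log2 fold change 0.17 with SE 0.37 and adjusted p = 0.956). Ms4a7, a multi-span protein gene of tissue macrophages, measured 29.01, 50.7 and 21.2 CPM in WT and 35.5, 64.2 and 51.02 CPM in Abca4KO (log2 fold change 0.58 with SE 0.34 and adjusted p = 0.781). Of these, Csf2ra was highest in WT 2, and Adgre1 and Ms4a7 were highest in Abca4KO 2.

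Csf1r was even across libraries, as Cd14 was in WT. It measured 594, 567 and 579.8 CPM in WT 1, 2 and 3 and 526, 525 and 551 CPM in Abca4KO 1, 2 and 3, so the highest WT library was 1.05 times the lowest, where that ratio was 7.28 for Ptprc, 4.28 for Spi1 and 2.36 in the median of the 34 members. Every Abca4KO value was under every WT value by a small step (log2 fold change -0.12 with SE 0.07 and adjusted p = 0.786). Csf1r overlaps Hmgxb3 on the opposite strand over 873 exonic bases, with 3661 counts assigned to Hmgxb3 and 62558 to Csf1r over the 6 libraries, and is uncertain to that extent. Its ligand genes, singled out after their values were seen, were lower per kilobase of gene length, at 6.42 for Csf1 and 2.89 for Il34 against 114 CPM per kilobase for Csf1r. Csf1 measured 22.7, 72.4 and 22.9 CPM in WT and 21.3, 34.3 and 29.9 CPM in Abca4KO and Il34 4.97, 5.15 and 5.72 CPM in WT and 5.43, 6.398 and 6.28 CPM in Abca4KO, with adjusted p-values of 0.8796 and 0.883. Csf1 had the high WT 2 library that Csf1r lacked, and Il34 was even.

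Over all members, 13 were highest in WT 2 and 17 in Abca4KO 2, against 24.9% and 17.4% of all genes. WT 3 was the lowest library for 23 members and for 20.2% of all genes. In 20 members WT 2 was at least 1.5 times the mean of WT 1 and WT 3, against 14.5% of all genes, and in 12 Abca4KO 2 was at least 1.5 times the mean of Abca4KO 1 and Abca4KO 3, against 9.46%. That ratio was set after the values were seen and is a description. Of the 20 members, 15 had a positive log2 fold change, 3 did not overlap between the genotypes and 18 were lowest in WT 3. Of the other 14, 8 were positive and 7 did not overlap, where 12.8% of all genes did not overlap. All genes were not split in this way. A high WT 2 makes it harder for all Abca4KO libraries to lie above WT, so the groups cannot be compared on overlap. WT 2 also stood apart in genes that are not members. A list of 31 interferon-stimulated genes summed to 500.2, 5020.2 and 456 CPM in WT and 502, 749.8 and 523 CPM in Abca4KO, and 31 of 31 were highest in WT 2. A list of 18 dendritic cell and antigen presentation genes summed to 1636, 13295 and 1090.0 CPM in WT and 2012, 5215 and 3596 CPM in Abca4KO, with 16 of 18 highest in WT 2. No gene of either list was at 0 in all libraries, and their part in the member values of WT 2 was not tested.

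Without WT 2 no member passed the threshold (0 of 34, beside 0.0617% of 17826 genes), and 19 had an unadjusted p under 0.05, all higher in Abca4KO, beside 10.7% of all genes. In that fit 27 of 34 members were positive, against 52.3% of all genes, and 22 did not overlap between the genotypes, against 28.0%. The 4 that changed sign were Ptprc, Cx3cr1, Aif1 and Ms4a6c, all from negative to positive. By role, 17 of 18 pan-macrophage members (median 0.79), 5 of 5 lipid-associated (0.87), 3 of 6 perivascular (0.29) and 2 of 5 microglial members (-0.30) were then positive. Leaving out WT 3 instead, the lowest library of 23 members, gave another picture. Then 18 of 34 were positive (49.1% of all genes) with a median of 0.02, and 7 members changed sign. In that fit 8 members had an unadjusted p under 0.05 (6 higher and 2 lower), beside 6.59% of all genes. Without both WT 2 and Abca4KO 2, a choice made after the values were seen, 27 of 34 were positive (50.8% of all genes) with a median of 0.51, 23 did not overlap (37.9% of all genes), and 0 of 34 passed in edgeR, with 16 at an unadjusted p under 0.05 (8.24% of all genes).

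**Figure D3:**
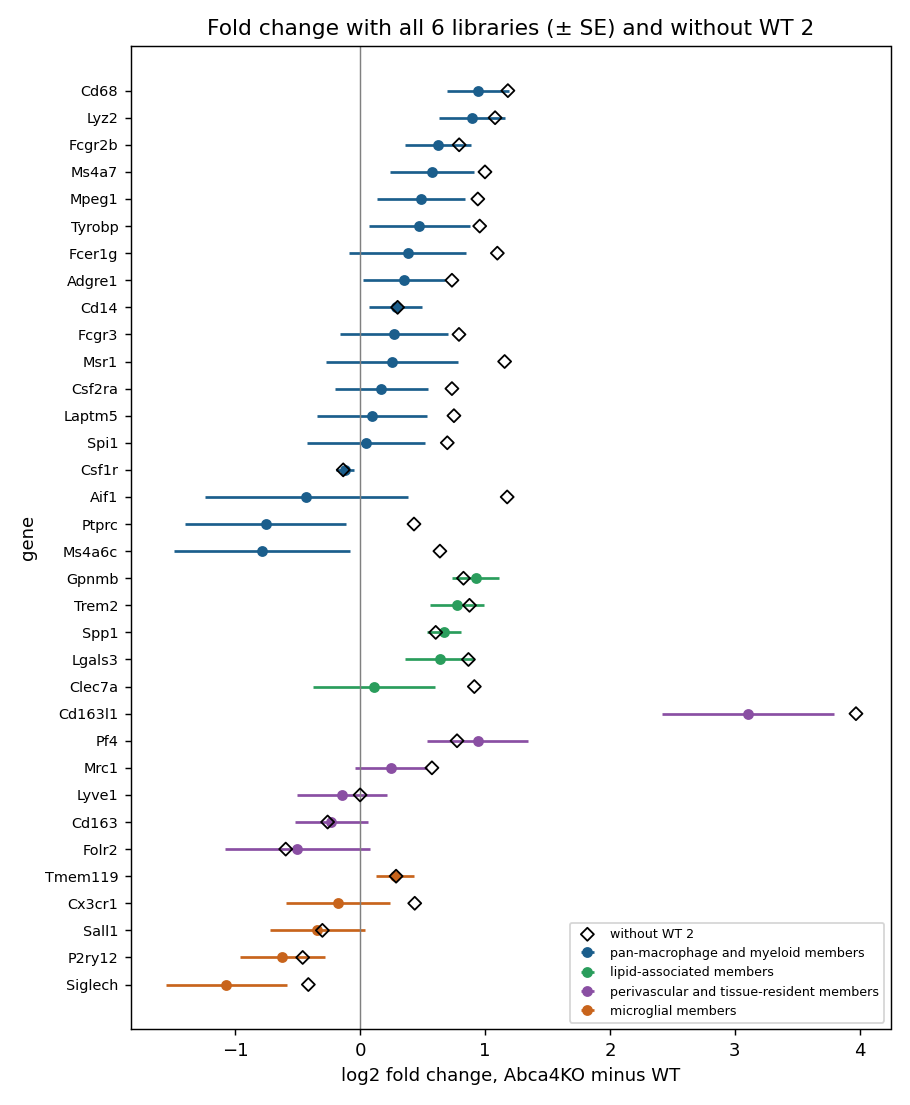
Log2 fold change of each member (Abca4KO minus WT), with all 6 libraries as filled circles with the standard error as bars, and without WT 2 as open diamonds, by role. Ptprc, Aif1, Ms4a6c and Cx3cr1 cross 0 when WT 2 is left out, while Gpnmb, Spp1, Cd68, Lyz2 and Trem2 stay on the positive side.

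The perivascular and tissue-resident members were sparse, and 3 of 6 were positive, with a median of 0.05. Cd163l1, a scavenger receptor gene of the cysteine-rich family to which Cd163 belongs (chr7:140218267-140231145), had the highest fold change of all members. It measured 0.681, 2.42 and 0.708 CPM in WT 1, 2 and 3 and 4.87, 19.5 and 8.54 CPM in Abca4KO 1, 2 and 3, from 13, 45 and 13 counts in WT and 96, 378 and 147 in Abca4KO. Its means were 8.65-fold apart and the genotypes did not overlap (log2 fold change 3.11 with SE 0.69 and adjusted p = 0.502). Its place in this group rests on the gene list alone, and which cells carried it was not tested. The values differed 4.004-fold among the Abca4KO libraries themselves, and the log2 fold change was between 2.40 and 3.97 when single libraries were left out. Pf4, the gene of platelet factor 4, measured 2.09, 1.02 and 0.925 CPM in WT and 2.54, 2.68 and 2.56 CPM in Abca4KO, and all Abca4KO libraries lay above WT 1, the highest WT library (log2 fold change 0.94 with SE 0.40 and adjusted p = 0.706). Mrc1, the mannose receptor CD206, measured 18.4, 27.9 and 13.1 CPM in WT and 21.9, 29.5 and 18.9 CPM in Abca4KO and overlapped (log2 fold change 0.24 with SE 0.29 and adjusted p = 0.899). Cd163, the haemoglobin scavenger receptor, measured 2.304, 2.25 and 2.504 CPM in WT and 1.78, 2.37 and 1.86 CPM in Abca4KO (log2 fold change -0.23 with SE 0.29 and adjusted p = 0.906). Lyve1, a hyaluronan receptor, measured 1.62, 2.25 and 1.796 CPM in WT and 1.67, 2.22 and 1.22 CPM in Abca4KO (log2 fold change -0.15 with SE 0.36 and adjusted p = 0.961). Folr2, the folate receptor beta, measured 0.576, 0.913 and 1.69 CPM in WT and 0.457, 1.14 and 0.639 CPM in Abca4KO (log2 fold change -0.50 with SE 0.58 and adjusted p = 0.897), from 9 to 31 counts per library, with 320 counts over the 6 libraries assigned to Gm10602, which overlaps it on the opposite strand. The levels of Cd163, Lyve1 and Folr2 overlapped between the genotypes.

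Of the 5 microglial members 4 had a log2 fold change below 0, and their median was -0.35. P2ry12, the ADP receptor of resting microglia, measured 1.83, 2.47 and 1.796 CPM in WT and 1.12, 1.496 and 1.34 CPM in Abca4KO. Every Abca4KO value was under every WT value (log2 fold change -0.62 with SE 0.34 and adjusted p = 0.767). Siglech, a sialic acid-binding lectin gene also known from plasmacytoid dendritic cells, measured 3.51, 8.97 and 3.05 CPM in WT and 2.94, 2.84 and 1.57 CPM in Abca4KO. Its WT 2 value was 2.73 times the mean of the other WT libraries and its genotypes did not overlap, with Abca4KO 1 close below WT 3 (log2 fold change -1.07 with SE 0.49 and adjusted p = 0.717). The log2 fold change of Siglech was -0.42 without WT 2. Tmem119, a membrane protein gene of microglia that fibroblasts and bone cells also express, measured 19.1, 17.8 and 15.8 CPM in WT and 18.2, 24.6 and 21.2 CPM in Abca4KO. It was even, with overlap (log2 fold change 0.28 with SE 0.15 and adjusted p = 0.761). Sall1, a transcription factor gene of microglial identity, measured 3.72, 5.32 and 6.04 CPM in WT and 2.23, 5.73 and 3.89 CPM in Abca4KO (log2 fold change -0.35 with SE 0.38 and adjusted p = 0.889). Cx3cr1, the fractalkine receptor gene, measured 16.7, 33.3 and 8.93 CPM in WT and 15.3, 18.7 and 18.02 CPM in Abca4KO, highest in WT 2, and its log2 fold change of -0.18 with SE 0.42 and adjusted p = 0.958 became 0.44 without that library. P2ry12 overlaps Med12l on the opposite strand over 9 exonic bases, and the annotated span of Cx3cr1 covers several other genes.

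Per kilobase of deposited gene length, the members spanned from 0.399 CPM per kilobase in Cd163 to 1754 in Lyz2, as means of 6 libraries. Below Lyz2 came Gpnmb at 277, Csf1r at 114, Mpeg1 at 113, Cd68 at 110.0, Lgals3 at 101 and Spp1 at 98.6. The 5 genes from Csf1r to Spp1 lie closer together than their libraries spread, except that Csf1r itself varied little. Tyrobp followed at 78.1, Laptm5 at 36.8 and Csf2ra at 35.97. The pan-leukocyte gene Ptprc was at 5.72 and Aif1 at 6.13 CPM per kilobase, both below Csf1r. P2ry12 at 0.658, Sall1 at 0.852 and Siglech at 1.13 were near the low end with Cd163, Lyve1 at 0.616 and Folr2 at 0.583, whereas Tmem119 was at 8.39. So the microglial and perivascular markers other than Tmem119, Cx3cr1, Mrc1 and Pf4 were all under 2 CPM per kilobase. Lyz2, Gpnmb and Csf1r together took 72.8% of the summed CPM of the members, so a sum over members mostly reads those 3 genes. That sum was 4964, 5938 and 3939 CPM in WT and 5914, 9898 and 7821 CPM in Abca4KO.

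**Figure D4:**
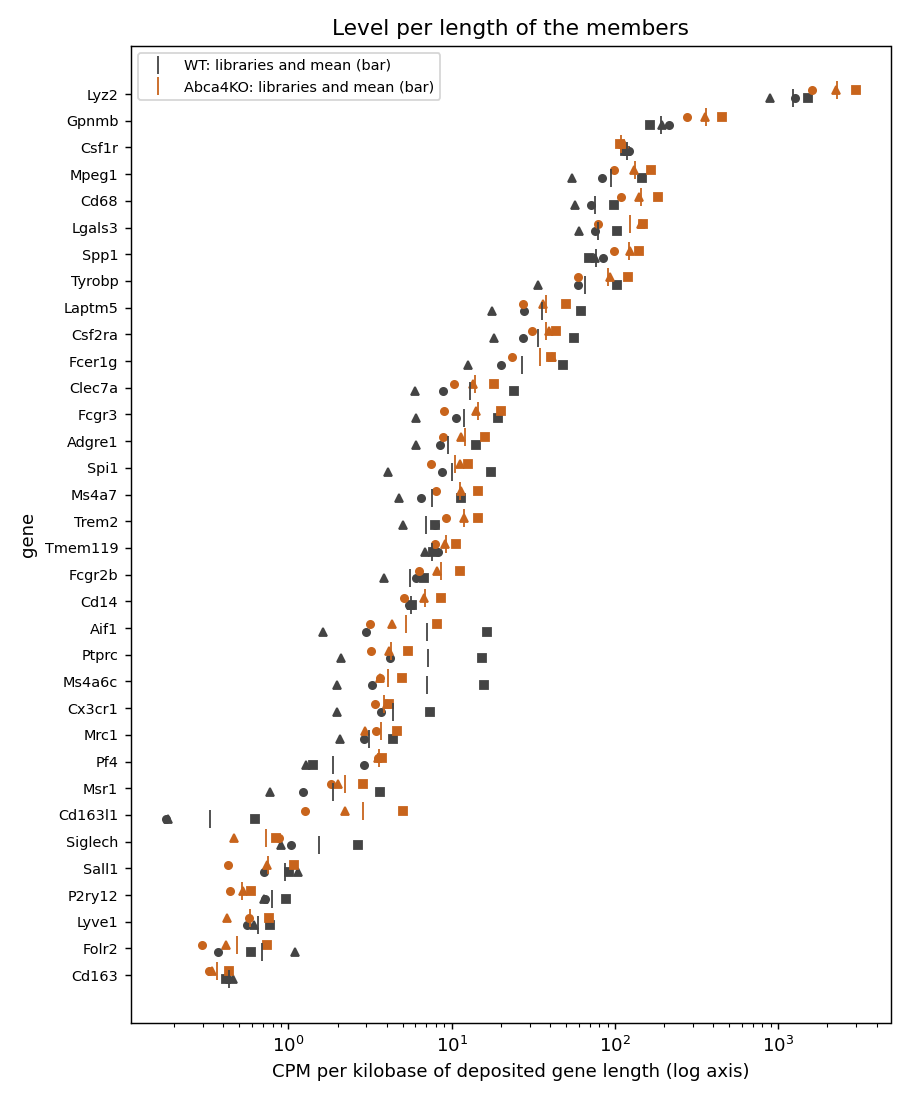
Level of each member per kilobase of deposited gene length, on a log axis, in each library (circle, square and triangle for replicates 1, 2 and 3, WT in grey and Abca4KO in orange), with the mean of each genotype as a bar. Lyz2 is highest and Cd163 lowest, and the points of Csf1r lie on top of one another while those of Ptprc, Aif1 and Ms4a6c are spread in WT.

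Other genes of the same cells were measured beside the members. Of 54 further macrophage genes 53 were tested, 29 were positive with a median of 0.05, and 0 passed the threshold in either direction, with 4 at an unadjusted p under 0.05. Beside this and the lists that follow, 47.8% of all genes were positive and 7.02% had an unadjusted p under 0.05. The complement receptor gene C3ar1 measured 21.8, 18.1 and 11.98 CPM in WT and 28.1, 40.7 and 35.6 CPM in Abca4KO (adjusted p = 0.526). The cysteine protease gene Ctss measured 313, 585 and 214 CPM in WT and 645, 1349 and 983 CPM in Abca4KO (adjusted p = 0.616). Both were higher in every Abca4KO library. Of the 53 tested, 3 were higher and 0 lower in every Abca4KO library, where 5.93% and 6.85% of all genes were, so the list lay near the share of all genes for higher ones. The smallest adjusted p of the list was 0.393, in a gene not named here. Of these 54 genes 32 were highest in WT 2 and 16 in Abca4KO 2. Of 27 genes of CSF1 receptor, TREM2 and DAP12 signalling, 25 were tested, 8 were positive with a median of -0.14, and 0 passed, with 1 at an unadjusted p under 0.05. That gene was Nfatc1, a calcium-responsive transcription factor gene, at 30.3, 44.5 and 27.8 CPM in WT and 22.8, 26.9 and 24.8 CPM in Abca4KO (adjusted p = 0.701), lower in every Abca4KO library. Of 30 further genes linked to lipid-associated macrophages, which include Tyrobp and Csf1, 28 were tested, 19 were positive with a median of 0.26, and 0 passed, with 10 at an unadjusted p under 0.05 (7.02% of all genes). The protease gene Ctsl measured 372, 341 and 381 CPM in WT and 449, 556 and 519.9 CPM in Abca4KO (adjusted p = 0.463), and the fatty acid-binding protein gene Fabp5 51.3, 51.9 and 34.2 CPM in WT and 63.2, 103 and 88.6 CPM in Abca4KO (adjusted p = 0.546). The cholesterol exporter gene Abca1 measured 193, 182 and 190.0 CPM in WT and 158, 155 and 149 CPM in Abca4KO (adjusted p = 0.526). Ctsl and Fabp5 were higher and Abca1 lower in every Abca4KO library, and RPE cells are known to express Ctsl and Abca1 as well. Of the 28 tested in that list, 8 were higher and 1 lower in every Abca4KO library, against 5.93% and 6.85% of all genes.

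Markers of other blood cells were read next. In the monocyte and neutrophil list 18 of 22 genes were tested, 10 were positive and 0 passed in edgeR, with 1 at an unadjusted p under 0.05, and the sum was 308, 612 and 220.3 CPM in WT and 244, 389 and 269.9 CPM in Abca4KO. In the lymphocyte and mast cell list 30 of 30 were tested, 9 were positive and 0 passed, with 5 at an unadjusted p under 0.05, and the sum was 264, 395 and 173 CPM in WT and 221, 352 and 263 CPM in Abca4KO. Jchain, the joining chain of secreted antibodies, measured 10.4, 12.4 and 6.04 CPM in WT and 12.4, 97.9 and 53.3 CPM in Abca4KO (adjusted p = 0.595), and Ms4a1, the B cell gene of CD20, 0.995, 3.92 and 1.03 CPM in WT and 0.457, 0.671 and 0.639 CPM in Abca4KO (adjusted p = 0.691). Jchain was highest in Abca4KO 2, as Cd163l1 was, and Ms4a1 in WT 2. The smallest adjusted p of the lymphocyte and mast cell list was 0.489, in a gene not named here. In the interferon and antigen presentation lists 1 of 31 and 2 of 17 tested genes were positive, and 0 passed, with 1 and 0 at an unadjusted p under 0.05. No marker of these 4 lists was at 0 in all libraries, and their part in the member values was not tested.

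Markers of the tissues around the macrophages were read in the same way. Endothelial markers were positive in 18 of 18, with a median of 0.62, 0 past the threshold and 10 at an unadjusted p under 0.05, against 47.8% positive and 7.02% at that p among all genes. They summed to 659, 897 and 543 CPM in WT and 916, 916 and 1346 CPM in Abca4KO. Fibroblast and sclera markers were positive in 10 of 15, with a median of 0.16, 0 past the threshold and 5 at an unadjusted p under 0.05, and summed to between 2075 and 2337 CPM in WT and between 2294 and 2775 CPM in Abca4KO. Melanocyte markers were positive in 8 of 10 (median 0.32), rod markers in 14 of 15 (median 0.41), RPE markers in 10 of 20 (median 0.03) and Muller glia and astrocyte markers in 3 of 11 (median -0.22), each with 0 past the threshold. At an unadjusted p under 0.05 there were 4 melanocyte, 0 rod, 4 RPE and 3 Muller glia and astrocyte markers. Rod markers summed to 1940.0, 745 and 1779.8 CPM in WT and 3678, 1117 and 1247 CPM in Abca4KO and Muller glia and astrocyte markers to between 6015 and 6905 CPM in WT and between 5847 and 6037 CPM in Abca4KO. The rod sum was highest in Abca4KO 1, where no member was highest. None of these lists had a marker at 0 in all libraries. Rlbp1 was in both the RPE and the Muller glia and astrocyte lists, so those sums share its counts. Kit was in both the melanocyte and the lymphocyte and mast cell lists. The part of the surrounding tissue in the member values was not tested.

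**Figure D5:**
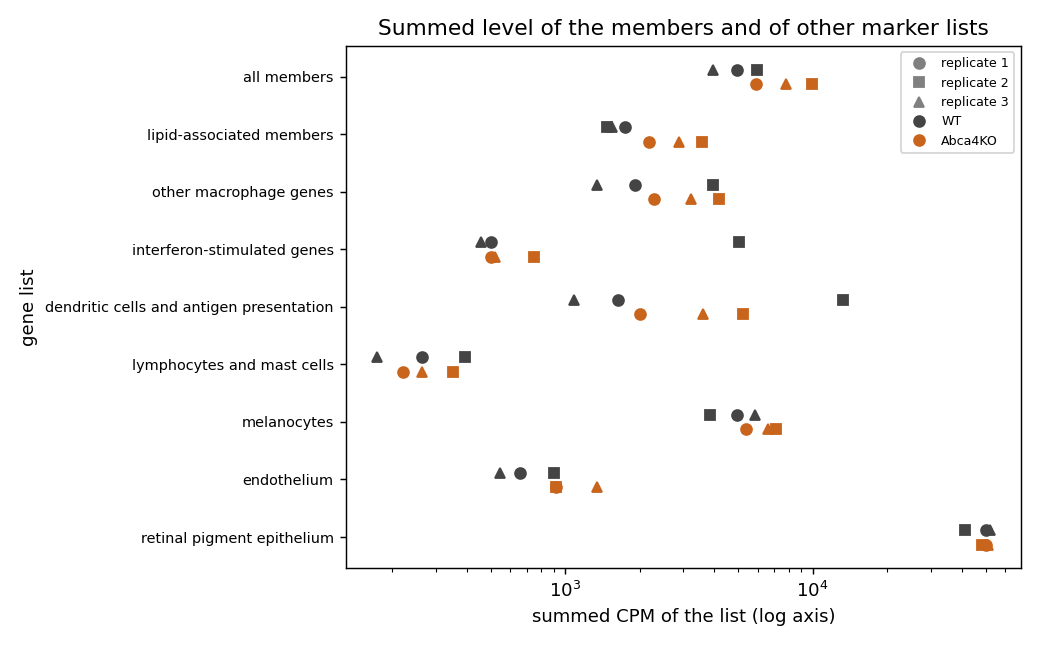
Summed CPM of the members and of other marker lists in each library, on a log axis (circle, square and triangle for replicates 1, 2 and 3, WT in grey and Abca4KO in orange). The grey square of WT 2 lies far to the right for interferon-stimulated and antigen presentation genes. The sum of the lipid-associated members lies further right in all 3 Abca4KO libraries (2190 to 3579 CPM) than in WT (1479 to 1738 CPM). Most of that sum is Gpnmb, with means of 1244 CPM in WT and 2359 CPM in Abca4KO, and Lgals3 and Clec7a overlap between the genotypes.

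The genes most like the leukocyte members across libraries were found by Pearson correlation over the 6 libraries with the mean log2 CPM of Ptprc, Laptm5 and Tyrobp. They were Lcp1 (r = 0.999), Arhgap9 (0.999), Ptpn18 (0.998), Cd300a (0.998) and Aup1 (0.998). Lcp1 encodes the actin-bundling protein plastin of blood cells and Cd300a an inhibitory receptor of myeloid cells. Lcp1 measured 85.3, 208 and 46.7 CPM in WT and 79.1, 143 and 106 CPM in Abca4KO. It had the order of Laptm5, with WT 2 highest, Abca4KO 2 next and WT 3 lowest. The 6 points share the libraries of both genotypes and no p is given. Among the members that do not enter the mean, the same measure was 0.99 for Clec7a, 0.98 for Spi1 and 0.98 for Csf2ra, but 0.57 for Trem2, 0.15 for Spp1, 0.12 for Gpnmb and -0.27 for Csf1r. Over the 5 libraries without WT 2 it was 0.97 for Trem2, 0.92 for Spp1 and 0.90 for Gpnmb, each higher than over 6 libraries, and -0.55 for Csf1r.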

How the data were processed

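Raw read counts per gene, not normalized, were deposited for 6 libraries, 1 per mouse (3 WT and 3 Abca4KO), with gene length and coordinates. Per the submitters' processing notes, STAR, HTSeq and the build mm10 were named without versions; the annotation and the use of strand are not given in the sources used here. Extraction used an RNAqueous-Micro kit and library preparation NEBNext Ultra RNA reagents, per the labels' protocols. Gene length is another value of the deposited table and was used only for levels per kilobase.

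Genes were filtered with filterByExpr (minimum count 10) in edgeR 4.0.16, R 4.3.3, scaled by TMM and compared by the 2-sided quasi-likelihood test without covariates. P-values were adjusted by Benjamini-Hochberg over all genes, and the threshold was 0.05. SE is the standard error, computed as the size of the log2 fold change (Abca4KO minus WT) over the square root of F. DESeq2 1.42.0, limma 3.58.1, other size factors, other filters, a replicate block and each library left out were the alternatives. Chi-square per degree of freedom was at least 9.97 for each pair of libraries, so none was counted as a copy.

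Members and lists were chosen with earlier results of these data known. All members are named. Of other lists up to 3 genes with small p are named, but not always the gene with the smallest p. Abca4, Rpe65 and the 5 genes of highest correlation are named as well. Csf1 and Il34 fall outside this rule. Overlaps come from GENCODE M21, in which 30 of 34 members had the deposited coordinates, and similar transcripts (at least 95% over 100 bases) from BLAST 2.17.0. Ms4a6c shares its exons in part with BE692007, and Lyz2 is 95.8% identical to Lyz1, so these are uncertain.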

Additional observations from a re-analysis of the deposited data

How the results depend on the processing

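The number of all genes past the threshold was 8 in the reported fit, 19 with no filter on low counts, 114 with DESeq2 and 3 to 11 when single libraries were left out (4 without WT 1, 3 without Abca4KO 2 and 3 without Abca4KO 3). Members past it were 0 of 34 under other size factors, no filter, limma-voom and each library left out, 0 of 33 with a filter of 1 CPM in 3 libraries (which drops Folr2), 4 with DESeq2 (adjusted p 4.88e-05 to 0.00555) and 1 with the replicate number as a block. The blocked call was Cd163l1 (log2 fold change 3.13, adjusted p = 0.0465; adjusted p 0.150 to 0.981 when single libraries were left out). With the block 9 genes passed in all. Replicate numbers did not pair all libraries. Deviations from the group means of same-numbered libraries correlated at 0.17, 0.34 and -0.08. WT 1 and WT 2 correlated best with the Abca4KO library of the same number, and WT 3 with Abca4KO 1 (0.31). Members whose genotypes do not overlap were 10, and 10 to 22 when single libraries were left out (22 without WT 2), where 20.1% to 28.0% of all genes did not overlap, and 23 without WT 2 and Abca4KO 2, where 37.9% of all genes did not overlap. The median of the members was 0.02 to 0.74 and the positive count 18 to 27 over the single libraries left out.

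Signs turned in 12 members. Cx3cr1 was 0.011 and Aif1 0.16 in limma-voom, and Aif1 was 0.091 with the block. Without WT 2 and Abca4KO 2, Ptprc was 0.22, Cx3cr1 0.37, Aif1 0.68 and Ms4a6c 0.47. When single libraries were left out, the log2 fold change lay between -1.18 and 0.43 for Ptprc, -0.52 and 0.44 for Cx3cr1, -0.90 and 1.18 for Aif1, -1.21 and 0.64 for Ms4a6c, -0.22 and 0.75 for Laptm5, -0.23 and 0.91 for Clec7a, -0.32 and 0.70 for Spi1, -0.043 and 0.79 for Fcgr3, -0.11 and 1.16 for Msr1, -0.12 and 0.73 for Csf2ra, -0.94 and 0.0072 for Folr2, and -0.38 and 0.042 for Lyve1. The other 22 members kept their sign in all 6 of these fits. The cause of these turns was not tested. Cd163, Lyve1, Folr2 and P2ry12 had at most 46 counts per library.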
